A study of Mus musculus with 30 samples.

Results

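Fibrillar collagens form the rope-like fibers that give bone and fibrous tissue their tensile strength. In the fracture callus 7 collagen genes were followed, Col12a1 being that of a collagen on the fibril surface: Col1a1, Col1a2, Col3a1, Col5a1, Col5a2, Col12a1 and Col24a1. They were chosen by name from the 43629 genes of the deposited count table, of which 27445 had at least 1 count, and every one of the 7 passed the filter on low counts in each fit. Levels are given as CPM, the counts of a gene per 1e+06 counts of its library, scaled with TMM factors (edgeR's correction for library composition).

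The callus is the tissue that bridges a broken bone, and it was taken here from male C57BL/6J mice, 20 weeks old, in which an open cut of the right tibial shaft had been held by a nail in the marrow cavity. Lean mice had a control diet, and mice with diet-induced obesity (DIO) a high-fat diet, in both cases from before surgery until the callus was taken. Both diets had the same surgery, so every group holds fractured tissue, and none holds unbroken bone. The authors state that soft tissue was removed and intact bone avoided. Each of the 30 libraries came from 1 callus, and each of the 10 groups held 3 mice. Both diets were sampled 3, 5, 7 and 10 days after fracture (d3 to d10), and DIO mice also on d14 and d21. For these last days Lean calli were not used here, so the diets were compared on d3 to d10 only.

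Type I collagen, made of Col1a1 and Col1a2 chains, is the main protein of bone matrix, and it is secreted by osteoblasts and by fibroblasts. Type III collagen (Col3a1) is typical of granulation tissue and other extensible fibrous tissue, and type V collagen (Col5a1 and Col5a2) sits inside the fibrils and sets their number and width. Type XII collagen (Col12a1) does not build fibrils of its own but lies on their surface in periosteum, tendon and ligament, and type XXIV collagen (Col24a1) is a minor fibrillar collagen found in forming bone.

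What these chains share is a coding sequence in which a glycine codon opens each triplet of codons, so that 3 chains can wind into a helix. One stretch of 54 bases from each gene is shown to make this visible, read from the principal GENCODE M21 transcript (genome GRCm38), with the glycine codon that opens each triplet in capitals.
Col1a1: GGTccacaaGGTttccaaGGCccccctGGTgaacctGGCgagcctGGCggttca
Col1a2: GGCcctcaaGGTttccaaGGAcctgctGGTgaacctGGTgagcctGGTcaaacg
Col3a1: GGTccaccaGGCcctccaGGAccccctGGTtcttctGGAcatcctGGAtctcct
Col5a1: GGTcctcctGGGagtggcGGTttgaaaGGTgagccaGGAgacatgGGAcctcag
Col5a2: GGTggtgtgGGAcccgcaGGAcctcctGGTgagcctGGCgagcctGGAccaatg
Col12a1: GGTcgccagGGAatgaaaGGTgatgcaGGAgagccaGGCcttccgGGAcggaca
Col24a1: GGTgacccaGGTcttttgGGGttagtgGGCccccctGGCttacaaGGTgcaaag

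These stretches lie in coding exons: exon 8 of 51 of Col1a1 (chr11:94939904-94939957, plus strand), exon 8 of 52 of Col1a2 (chr6:4515481-4515534, plus strand) and exon 6 of 51 of Col3a1 (chr1:45325360-45325413, plus strand). That of Col5a1 is in exon 15 of 66 (chr2:27965251-27965304, plus strand) and that of Col5a2 in exon 10 of 54 (chr1:45422386-45422439, minus strand). For Col12a1 it is in exon 57 of 66 (chr9:79612916-79612969, minus strand) and for Col24a1 in exon 7 of 60 (chr3:145328731-145328784, plus strand). The stretches of Col1a1 and Col1a2 have the same base at 42 of 54 positions. Those of Col1a1 and Col3a1 have the same base at 35, and those of Col1a1 and Col5a1 at 24. Every stretch starts on a glycine codon, so the GG that opens each triplet is the same in all pairs by construction. Whether the stretches are matching sites of the genes was not tested, so these counts do not measure how alike the genes are.

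The length of the repeat separates Col12a1 from the others. In the 5 chains of types I, III and V the longest unbroken run held between 338 and 344 glycine triplets. Col24a1 had 216 in its longest run and 327 in 3 runs of 10 or more. Col12a1 had 32 in its longest run and 78 in 4 runs, and glycine took up 9.17% of its 3066 codons against 26.8% in Col1a1. These counts were made on the coding sequence of the principal transcript of each gene.

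The genes lie on 6 chromosomes. In GRCm38, Col1a1 (ENSMUSG00000001506) spans chr11:94936224-94953042, Col1a2 (ENSMUSG00000029661) spans chr6:4504814-4541544, and Col5a1 (ENSMUSG00000026837) spans chr2:27886425-28039514. Col12a1 (ENSMUSG00000032332) spans chr9:79598991-79718831 and Col24a1 (ENSMUSG00000028197) spans chr3:145292472-145552011. Col3a1 (ENSMUSG00000026043, chr1:45311538-45349706) and Col5a2 (ENSMUSG00000026042, chr1:45374321-45503282) are neighbors, 24615 bases apart, and are read towards each other. Counting with or without strand is not given in the sources used here, which bears on 212 exonic bases of Col5a1 that overlap genes of the opposite strand. Another 141 exonic bases, of Col3a1, overlap an annotated gene on the same strand.

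Between 13247122 and 26365620 reads per library were counted on genes (median 16854427), so counting error is small for these abundant RNAs, and their precision is limited by how much 3 mice differ. All 14 osteoblast and osteocyte markers and at least 13 of 14 chondrocyte markers had 3 or more counts in every library. Libraries of a group differed by more than sampling noise in all 30 pairs (chi-square per degree of freedom 12.8 to 148). A pair of libraries stood apart in what follows. Replicate 2 of DIO d7 had 21063 CPM over the 14 chondrocyte markers against 43602 and 46762 in its group, and 6513 CPM over the 14 fibroblast and tenocyte markers against 2735 and 3734. Replicate 1 of Lean d10 had 85135 CPM of chondrocyte markers against 18316 and 19821. Where the call of a member or of a ratio changed without either library, this is stated. Counts of markers and of partner genes are given with all libraries only. Skeletal muscle fibre markers were uneven too, with a sum of 453 CPM in replicate 1 of DIO d21 and 30052 CPM in replicate 2 of DIO d10. As these are bulk samples, fewer cells of a type and less RNA per cell cannot be told apart in any value below.

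RNA of these collagens made up a large share of the counts of the callus. The 7 genes together took 4.24% ± 1.07 of all counts in DIO d21 (mean ± SD, n = 3), the lowest group, and 8.15% ± 1.33 in Lean d10, the highest. By mean CPM over the 30 libraries, which is not corrected for transcript length, Col1a1 ranked 1 and Col1a2 ranked 2 among all genes, with 27816 and 26919 CPM. Col3a1 ranked 6, Col5a2 ranked 36, Col5a1 ranked 51, Col12a1 ranked 87 and Col24a1 ranked 2262. Type I collagen alone accounted for 3.95% to 7.36% of counts in the group means.

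**Figure D1:**
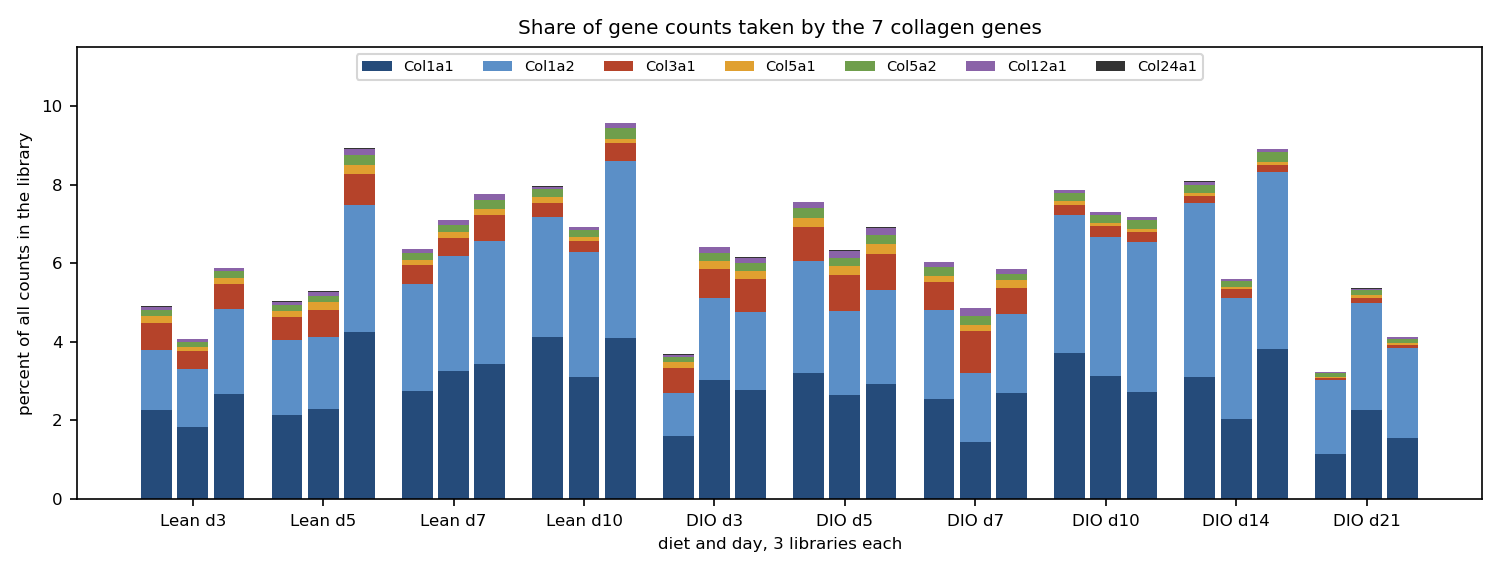
Percent of all counts in a library (y, from 0) taken by the 7 genes, stacked by gene, in bars of 1 library each for the 10 groups of diet and day (x). Col1a1 and Col1a2 take up most of every bar, and group means run from 4.24% in DIO d21 to 8.15% in Lean d10.

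To compare genes with each other, CPM was divided by the length of the principal transcript in kilobases. In Lean d10 the level per kilobase was 7312 ± 1712 CPM for Col1a1 (mean ± SD, n = 3), 7596 ± 1436 for Col1a2, 730.3 for Col3a1, 388 for Col5a2, 175 for Col5a1, 75.9 for Col12a1 and 13.7 for Col24a1. Per kilobase, type I collagen was therefore the most abundant of the set and Col24a1 the least. The order of Col1a1 and Col1a2 depended on the length used: per kilobase of all annotated exons, a length chosen after the values were seen, their means in Lean d10 were 6607 and 3269 CPM. Type I collagen was highest and Col24a1 lowest by either length.

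**Figure D2:**
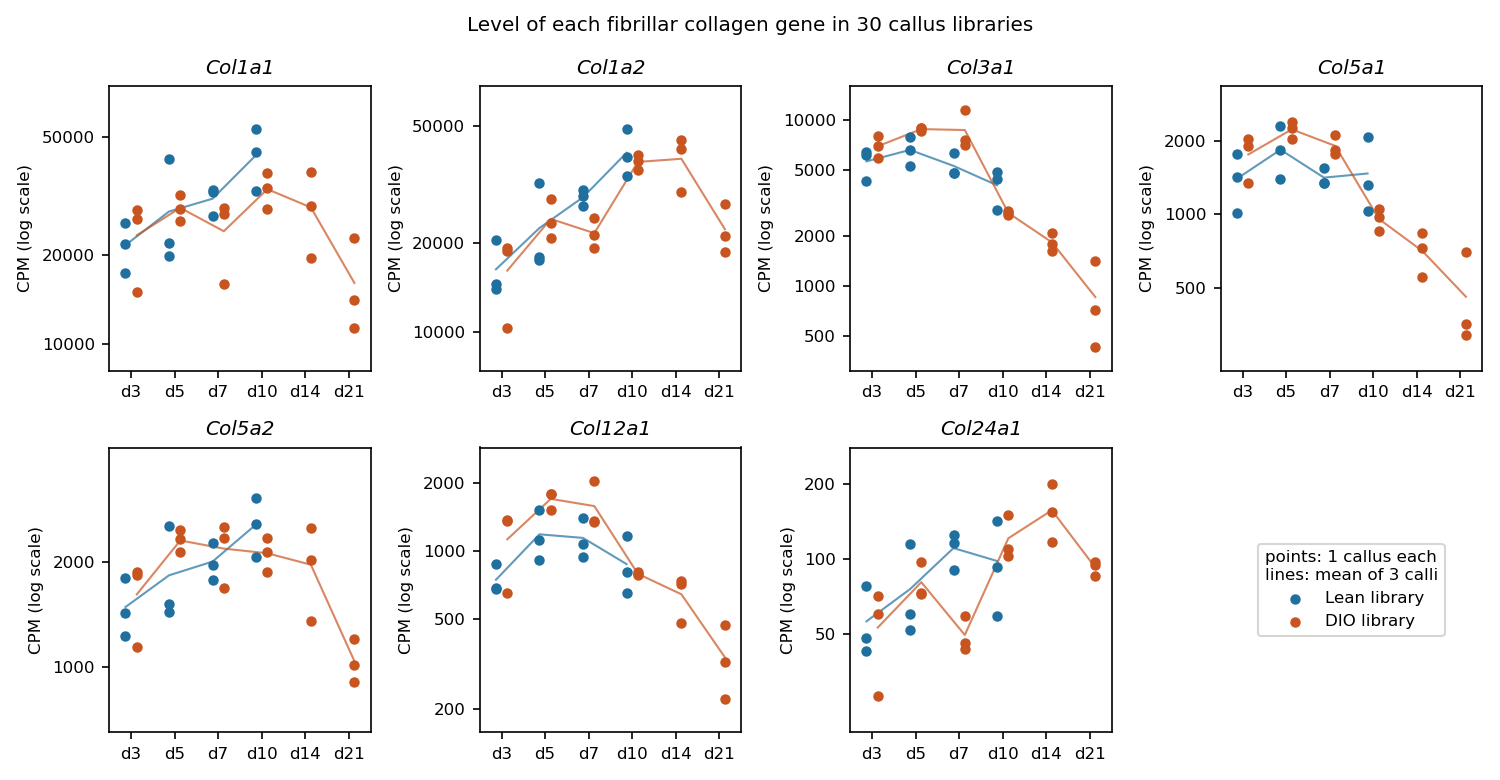
CPM on a log axis (y) against day after fracture (x) for the 7 genes in the 12 Lean and 18 DIO libraries, with each point 1 callus, blue for Lean and orange for DIO, and lines joining the group means. Col3a1 and Col12a1 reach their highest group means in DIO d5 (8861 and 1695 CPM) and their lowest in DIO d21 (859 and 339 CPM), while Col1a1 and Col1a2 are highest in Lean d10 (43363 and 40623 CPM).

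The genes differed in how far their group means were spread. Col3a1 covered the widest range, 10.3-fold from DIO d21 to DIO d5, followed by Col12a1 (5.00-fold) and Col5a1 (4.84-fold) between the same groups. Col24a1 covered 3.16-fold, from 49.6 CPM in DIO d7 to 157 CPM in DIO d14. The range of Col1a1 (2.70-fold), Col1a2 (2.51-fold) and Col5a2 (2.47-fold) was narrower. When the 10 groups were put in order of their mean, most neighbors overlapped in their single values, in 9 of 9 neighboring pairs for Col1a1 and Col24a1 and in 8 of 9 for Col1a2, Col5a1, Col5a2 and Col12a1. For Col3a1 this was so in 6 of 9: Lean d10, DIO d10, DIO d14 and DIO d21, its 4 lowest groups, did not overlap with the next in order.

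In Lean mice the callus gained type I collagen RNA between d3 and d10, while Col3a1 and Col12a1 did not pass the test in either direction. Of the 7 genes, 3 rose: Col1a1, Col1a2 and Col5a2. Over all genes tested, 29.3% passed the threshold in this comparison and 15.2% passed it as higher. All tests across genes used edgeR's two-sided quasi-likelihood F-test with Benjamini-Hochberg adjustment over all genes tested and a threshold of 0.05, and differences are on the log2 scale.

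Col1a2, which codes for the second chain of type I collagen, stood at 13961, 14552 and 20479 CPM in the 3 calli of Lean d3 and at 33779, 39165 and 48925 CPM on d10. Every d10 callus was above every d3 callus, and the gene rose by 1.35 (SE 0.30, adjusted p = 0.00648). Col1a1, the gene of the more abundant chain of the type I molecule, went from 17339.9, 21673 and 25669 CPM to 32727, 44409 and 52953 CPM. These groups also did not overlap, and the difference was 1.04 (SE 0.33, adjusted p = 0.0313). Col5a2, the partner chain of Col5a1 in type V collagen, went from 1228, 1432 and 1799 to 2074, 2575 and 3055 CPM without overlap, a difference of 0.82 (SE 0.25, adjusted p = 0.0301). Col1a2 kept its call whichever of the 12 Lean calli was left out. Col1a1 and Col5a2 lost it without replicate 1 or 2 of Lean d3 or replicate 1 or 3 of Lean d10, with adjusted p of 0.0560 to 0.113 and 0.0548 to 0.116. Without replicate 1 of Lean d10, the callus rich in chondrocyte markers, Col1a1 differed by 0.87 (adjusted p = 0.0833) and Col5a2 by 0.82 (adjusted p = 0.0548).

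The other chain of type V collagen did not follow Col5a2. Col5a1 stood at 1010.2, 1416 and 1767 CPM on d3 and 1029, 1314 and 2061 on d10, with a difference of 0.10 (SE 0.28, adjusted p = 0.812) and overlapping groups. Without replicate 1 of Lean d10 its difference was -0.22. Col3a1 had 4279.7, 6215 and 6484 CPM on d3 and 2894, 4443 and 4853 CPM on d10, a difference of -0.45 (SE 0.26, adjusted p = 0.213). Col12a1 differed by 0.26 (SE 0.25, adjusted p = 0.457). Col24a1 stood at 42.8, 48.4 and 77.6 CPM on d3 and 58.9, 93.3 and 142 CPM on d10, with overlap, a difference of 0.83 (SE 0.36, adjusted p = 0.0975) that passed the threshold without replicate 1 of Lean d10 (1.10, adjusted p = 0.0379).

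Between single days of the Lean course none of the 7 genes passed. This held for d5 against d3, where 0.449% of all genes passed, for d7 against d5 (0% by edgeR, with 926 genes at an unadjusted p under 0.05 and 38 genes called by DESeq2), and for d10 against d7 (2.73%). On d5 the 3 values of Col12a1, 907, 1121 and 1519.8 CPM, were all above those of d3, 677, 687 and 872 CPM, with a difference of 0.69 (SE 0.25, adjusted p = 0.223). When all 4 Lean days were tested together, Col1a2 was the 1 gene of 7 called (adjusted p = 0.0317), against 19% of all genes. That call was lost without replicate 1 or 2 of Lean d3, replicate 1 of Lean d7 or replicate 1 or 3 of Lean d10, and without replicate 3 of Lean d5 the count was 3.

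Markers of cell types moved over the same days in Lean calli. Of 14 osteoblast and osteocyte markers, 11 rose between d3 and d10 and their summed level was 5673 to 8179.5 CPM on d3 and 17787 to 30001 CPM on d10. Chondrocyte markers rose in 13 of 14 cases (998 to 1532 CPM on d3, 18316 to 85135 CPM on d10), and all 9 osteoclast markers rose. Of 13 leukocyte markers 6 fell. Fibroblast and tenocyte markers were divided, with 5 of 14 rising and 2 falling. The part of these shifts in the collagen differences was not tested.

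In DIO mice the set split. Type III collagen, Col5a1 and Col12a1 fell between d7 and d10, and Col24a1 rose, while the type I genes did not pass the test. Of the 7 genes, 4 passed in this comparison, against 13% of all genes. Of these 1 was higher (6.01% of all genes) and 3 were lower (7.01% of all genes).

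Col3a1 stood at 7097, 7627 and 11519 CPM on d7 and at 2681, 2755 and 2857 CPM on d10. Every d7 callus was above every d10 callus, and Col3a1 fell by 1.66 (SE 0.33, adjusted p = 0.00235). The call held without any one of the 18 DIO calli. Without replicate 2 of DIO d7, which had the highest value, the difference was -1.41 (adjusted p = 0.0138). Col5a1 went from 1760.4, 1838 and 2109.6 to 851, 971 and 1048 CPM with no overlap and fell by 0.99 (SE 0.26, adjusted p = 0.0171). This call was lost without replicate 2 or replicate 3 of DIO d10 (adjusted p = 0.0557 and 0.0712). Col12a1 had 1333, 1352 and 2039.9 CPM on d7 and 781, 789 and 805 CPM on d10. Its groups did not overlap either and it fell by 0.99 (SE 0.29, adjusted p = 0.0333), but not without replicate 2 of DIO d7 (-0.76, adjusted p = 0.147) nor without replicate 1, 2 or 3 of DIO d10 (adjusted p = 0.0813, 0.0990 and 0.0874).

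Col24a1 moved the opposite way. It had 43.6, 46.04 and 59.2 CPM on d7 and 103, 109.8 and 150.4 CPM on d10, and rose by 1.29 (SE 0.27, adjusted p = 0.00394), with every d10 callus above every d7 callus. The call held whichever callus was left out, and without replicate 2 of DIO d7 the difference was 1.20 (adjusted p = 0.0223). Col1a2 went from 19234, 21306 and 24456 to 35510.3, 38028 and 39932 CPM, again without overlap, and its difference of 0.80 did not pass (SE 0.28, adjusted p = 0.0716). It passed with DESeq2 (adjusted p = 0.0056) and without replicate 1 of DIO d3 (adjusted p = 0.0375). Col1a1 (15976, 27351 and 28714 CPM, then 28479.7, 33524 and 37853 CPM) overlapped between the days, with a difference of 0.47 (SE 0.34) that did not pass. Col5a2 differed by -0.04 (SE 0.24, adjusted p = 0.937), beside the fall of its neighbor on the chromosome, Col3a1.

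Markers of several cell types shifted between DIO d7 and d10. Chondrocyte markers fell in 12 of 14 cases, with sums of 21063 to 46762 CPM on d7 and 5128 to 10420.0 CPM on d10. Osteoclast markers rose in 8 of 9 cases (1656 to 2373 CPM, then 13767 to 17704 CPM), and 9 of 14 osteoblast and osteocyte markers rose (10513 to 16865 CPM, then 16522 to 20495 CPM). Of the 14 fibroblast and tenocyte markers 1 rose and 2 fell, and their sums of 2735 to 6513 and 2762 to 3415 CPM overlapped. The part of these markers in the collagen differences was not tested.

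**Figure D3:**
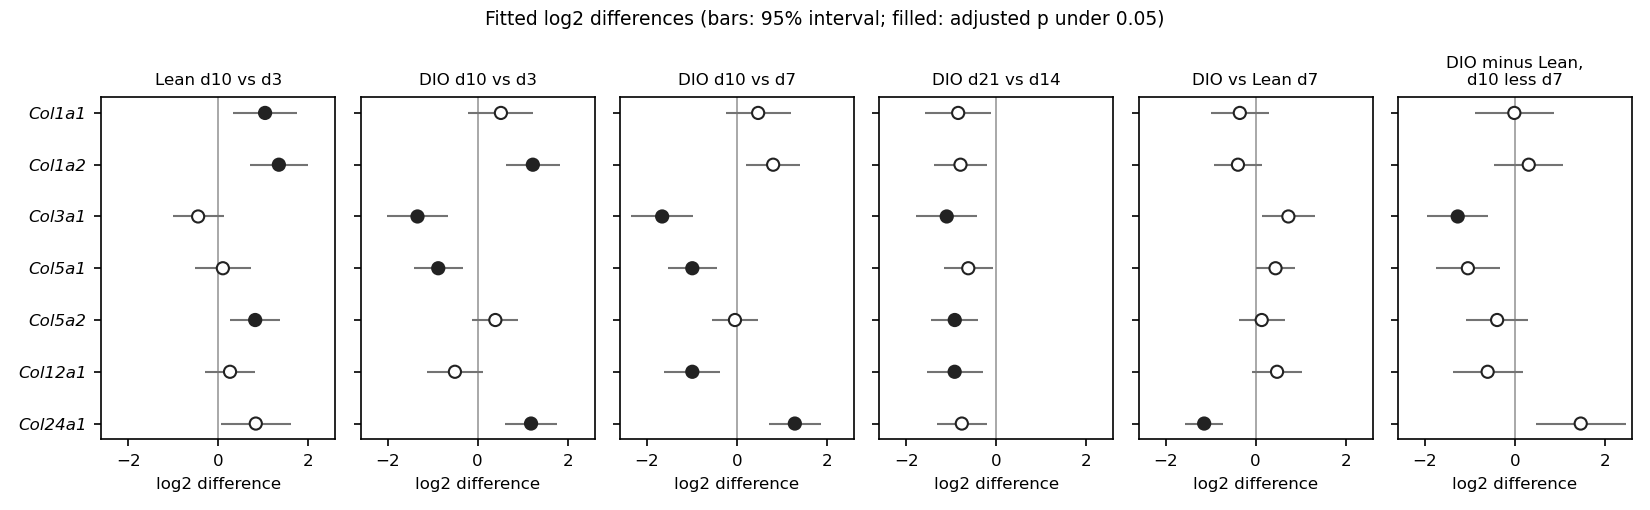
Log2 difference in CPM (x) of each of the 7 genes (y) in 6 comparisons of days or diets, from edgeR, with bars for the 95% interval and filled points for an adjusted p under 0.05. Col3a1 lies at -1.66 and Col24a1 at 1.29 for DIO d10 against d7, and Col1a2 lies at 1.35 for Lean d10 against d3.

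The longer span from d3 to d10 in DIO calli shares its d10 calli with the comparison above. Of the 7 genes, 4 passed, against 21.8% of all genes. Col1a2 and Col24a1 were higher (11.1% of all genes) and Col3a1 and Col5a1 were lower (10.8% of all genes). Col1a2 had 10329.6, 18913 and 19266 CPM on d3, each below the 3 values of d10, and rose by 1.23 (SE 0.29, adjusted p = 0.00584). Col24a1 started from 28.3, 60.2 and 70.97 CPM and rose by 1.19 (SE 0.27, adjusted p = 0.00500). Col3a1 started from 5959, 6981 and 8009.8 CPM and fell by 1.34 (SE 0.32, adjusted p = 0.00739). These 3 calls held without any one callus. Col5a1 fell by 0.87 (SE 0.26, adjusted p = 0.0236), a call that was lost without replicate 2 or 3 of DIO d3 or replicate 2 or 3 of DIO d10 (adjusted p = 0.0687 to 0.0952). Col1a1 (0.52), Col5a2 (0.39) and Col12a1 (-0.50) did not pass. Over this span osteoblast markers rose in 7 of 14 cases, chondrocyte markers in 9 of 14, erythroid markers in 6 of 7 and leukocyte markers in 4 of 13. Osteoclast markers rose in 8 of 9 cases, with sums of 728 to 1250.1 CPM on d3 and 13767 to 17704 CPM on d10. The part of these markers was not tested.

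Earlier in the DIO course no gene of the set was called. From d3 to d5, all 7 means were higher on d5, by 0.31 to 0.60 against a median of 0.005 over all genes. Replicate 1 of DIO d3 lowers the d3 means, as the 7 genes took 3.68% of its counts against 6.41% and 6.15% in its group. The genes also varied together within groups, so these are not 7 separate rises. None of the 7 passed (1.68% of all genes passed). Col3a1 reached 8619.8, 8938 and 9026 CPM on d5. From d5 to d7 none passed either (0.0177% of all genes by edgeR, 3 genes in all, with 2411 at an unadjusted p under 0.05 and 343 called by DESeq2).

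Late in the DIO course, from d14 to d21, 3 genes fell: Col3a1, Col5a2 and Col12a1. The differences of the other 4 genes were negative too but did not pass. Over all genes 19.6% passed and 9.03% passed as lower. Col3a1 went from 1624, 1793 and 2105 to 431, 719 and 1426 CPM and fell by 1.10 (SE 0.32, adjusted p = 0.0248). Col5a2 went from 1359, 2036 and 2508 to 907, 1009 and 1199 CPM and fell by 0.92 (SE 0.25, adjusted p = 0.0160). Col12a1 went from 478, 712 and 739 to 221, 324 and 472 CPM and fell by 0.92 (SE 0.29, adjusted p = 0.0364). None of these 3 genes overlapped between the days.

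The type I genes, Col5a1 and Col24a1 made up the rest. Col1a1 had 11373, 14099 and 22764 CPM on d21 after 19545, 29182 and 37971 CPM on d14, a difference of -0.85 (SE 0.34, adjusted p = 0.0908) with overlap. Col1a2 had 18640.1, 21112 and 27295 CPM after 29830.2, 41709 and 44760.0 CPM, a difference of -0.80 (SE 0.28, adjusted p = 0.0567) without overlap. Col5a1 (-0.62, adjusted p = 0.0992) and Col24a1 (-0.77, adjusted p = 0.0521) also missed the threshold.

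How many of the 7 genes passed on d21 depended on single calli. No gene was called without replicate 3 of DIO d14 or replicate 1 of DIO d21, 1 without replicate 3 of DIO d21, 5 without replicate 2 of DIO d14 or replicate 1 of DIO d3, and 6 without replicate 2 of DIO d21. Col3a1 lost its call without replicate 2 or 3 of DIO d14 or replicate 1 or 3 of DIO d21 (adjusted p = 0.0563 to 0.107). Col5a2 lost it without replicate 3 of DIO d14 or replicate 1 of DIO d21 (0.0756 to 0.0834), and Col12a1 without replicate 1 or 3 of DIO d14 or replicate 1 or 3 of DIO d21 (0.0879 to 0.164). In the same comparison 9 of 14 fibroblast and tenocyte markers fell (2466 to 2865 CPM on d14, 1378 to 1749.5 CPM on d21), 4 of 14 osteoblast and osteocyte markers fell, and 5 of 7 erythroid markers rose (3916 to 12803 CPM, then 27343 to 38356 CPM). Of 9 osteoclast markers 3 fell. Leukocyte markers rose in 2 of 13 cases, and their sums of 4458 to 7178 CPM on d14 and 8583 to 19766 CPM on d21 did not overlap. The part of these markers in the collagen differences was not tested.

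Between d10 and d14 none of the 7 genes passed (0.759% of all genes did). Col3a1 was lower in each d14 callus (1624, 1793 and 2105 CPM) than in each d10 callus, with a difference of -0.59 (SE 0.32, adjusted p = 0.348), and Col1a1 differed by -0.21 (SE 0.34, adjusted p = 0.791). Tested over all 6 DIO days together, 6 of the 7 genes were called, all but Col1a1 (adjusted p = 0.144), where 59.1% of all genes were called.

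The question of whether diet changed collagen RNA in the callus was addressed on each day that both diets shared. A single gene of the set passed on a single day: Col24a1 was lower in DIO than in Lean calli on d7. On that day 2.32% of all genes passed. Col24a1 had 90.4, 116 and 125 CPM in Lean calli and 43.6, 46.04 and 59.2 CPM in DIO calli, without overlap, a difference of -1.14 (SE 0.19, adjusted p = 0.0210), with a 95% interval of -1.57 to -0.72. The call was lost without any one of the 3 Lean d7 calli or without replicate 2 of DIO d7 (adjusted p = 0.0533 to 0.119).

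On d7 the fibrous collagens lay on the other side. Col3a1 had 4788, 4798 and 6366 CPM in Lean and 7097, 7627 and 11519 CPM in DIO calli, and Col5a1 had 1341, 1345 and 1549 CPM and 1760.4, 1838 and 2109.6 CPM. Neither gene overlapped between the diets, and neither difference passed (Col3a1 0.73, SE 0.27, adjusted p = 0.205, Col5a1 0.44, adjusted p = 0.296). DESeq2 called Col3a1 beside Col24a1. Without replicate 2 of DIO d7 Col3a1 differed by 0.49 (adjusted p = 0.407). Col1a2 was lower in each DIO callus than in each Lean callus (-0.39, not passing), and Col1a1 (-0.35), Col5a2 (0.14) and Col12a1 (0.48) overlapped. On the same day 7 of 8 osteoclast markers were lower and 4 of 14 chondrocyte markers higher in DIO calli, and 3 of 14 osteoblast and osteocyte markers were lower. Their part was not tested.

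On d5 none of the 7 genes passed (1.08% of all genes did). Col3a1 stood at 5325, 6596 and 7988 CPM in Lean and 8619.8, 8938 and 9026 CPM in DIO calli, without overlap, with a difference of 0.42 (SE 0.19, adjusted p = 0.284). Col12a1 differed by 0.52 (SE 0.20, adjusted p = 0.228), and it passed without replicate 3 of Lean d5 (0.74, adjusted p = 0.0357), as did Col5a2. On d3, 0% of all genes and none of the 7 passed with edgeR, with 2374 genes at an unadjusted p under 0.05 and 726 called by DESeq2. On d10 the figure was again 0%, with 1082 and 41. On that day Col3a1 had 2894, 4443 and 4853 CPM in Lean and 2681, 2755 and 2857 CPM in DIO calli. Each DIO callus lay below each Lean callus, a difference of -0.54 (SE 0.25, adjusted p = 0.686) with an interval of -1.11 to 0.03, and Col5a1 differed by -0.60 (SE 0.28, adjusted p = 0.686). These misses do not show that the diets were alike, since the interval of Col3a1 reached to -1.11. Sums of markers also differed between the diets. On d10 skeletal muscle fibre markers had 1465 to 17599 CPM in Lean and 22170 to 30052 CPM in DIO calli. Chondrocyte markers had 18316 to 85135 CPM in Lean d10 and 5128 to 10420.0 CPM in DIO d10. Adipocyte markers had 149 to 290 CPM in Lean d10 and 325 to 555 CPM in DIO d10. Leukocyte markers had 8745 to 17366 CPM in Lean d3 and 3178 to 3720 CPM in DIO d3. On d5 they had 3546 to 9166 and 1874 to 3424 CPM. Osteoblast and osteocyte markers overlapped on d3, d5 and d10. The part of these markers was not tested.

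The diet difference of Col3a1 had opposite signs on d7 and d10, and the change between these days was itself tested over the 24 libraries of d3 to d10. The diet difference on d10 less that on d7 was -1.27 for Col3a1 (SE 0.33, adjusted p = 0.0285), with an interval of -1.95 to -0.59. Col3a1 was the 1 gene of 7 called, against 5.07% of all genes. The call was lost without replicate 1 or 2 of Lean d7, replicate 1 of Lean d10, replicate 2 of DIO d7 or replicate 1 or 3 of DIO d10 (adjusted p = 0.0515 to 0.0854), and the difference was -1.02 without replicate 2 of DIO d7 and -1.20 without replicate 1 of Lean d10. Col5a1 (-1.05, adjusted p = 0.0740) and Col24a1 (1.46, adjusted p = 0.0781) did not pass with edgeR but passed with DESeq2, or with edgeR without replicate 2 (Col5a1: -1.25, adjusted p = 0.0276) or replicate 3 (Col24a1: 1.82, adjusted p = 0.0256) of Lean d10. In this comparison 10 of 14 chondrocyte markers moved lower and 7 of 9 osteoclast markers higher, and their part was not tested.

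Averaged over d3 to d10, 0% of all genes and none of the 7 differed between the diets with edgeR, with 2937 genes at an unadjusted p under 0.05 and 430 called by DESeq2. Col12a1 was highest of the set, with a difference of 0.37 (SE 0.14, adjusted p = 0.190) and an interval of 0.08 to 0.66, and Col3a1 differed by 0.24 (SE 0.15, adjusted p = 0.429). When all 4 days were tested jointly for a change of the diet difference, none of the 7 passed, and 1.65% of all genes did. Without replicate 2 of Lean d10 Col3a1 was called there.

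The make-up of the collagen RNA was followed in each library as a ratio of counts, which does not depend on how libraries are scaled. Between d3 and d10 Col3a1, Col5a1 and Col12a1 fell relative to Col1a1, and Col5a2 fell relative to Col1a2. Within type I, Col1a1 fell relative to Col1a2. For 6 ratios the difference of d10 less d3 was tested by a two-sided exact permutation of the days within each diet, with 400 arrangements, a smallest possible p of 0.005 and Benjamini-Hochberg adjustment over the 6.

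For each 100 counts of Col1a1, Col3a1 had 24.2, 24.7 and 29.9 counts in Lean d3 and 8.39, 8.84 and 10.9 in Lean d10. In DIO calli it had 24.6, 30.3 and 39.7 on d3 and 7.08, 8.52 and 9.67 on d10. Both diets had lower values on d10 without overlap, and the ratio fell by 1.69 on the log2 scale (exact permutation p = 0.005, adjusted 0.0075). In DIO d7 the values were 24.7, 27.9 and 72.1, the highest being that of replicate 2, and by d21 they were 3.79, 5.10 and 6.27.

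Against Col1a1 the fall was smaller for Col5a1 and Col12a1 than for Col3a1. Col5a1 to Col1a1 fell by 1.19 and Col12a1 to Col1a1 by 0.89 on the log2 scale, both with an exact permutation p of 0.005 (adjusted 0.0075). Col5a2 to Col1a2 fell by 0.69 (exact permutation p = 0.005, adjusted 0.0075), from 9.53, 9.88 and 11.1 counts per 100 in DIO d3 to 5.29, 5.64 and 5.87 in DIO d10. This ratio is to Col1a2, which gained on Col1a1 over the same days, so its fall cannot be set beside the ratios to Col1a1. Col5a2 to Col1a1 was not tested. Col24a1 to Col1a1 differed by 0.24 (exact permutation p = 0.47), with the Lean calli alone at -0.24. Without replicate 1 of Lean d10 it differed by 0.48 and passed (exact permutation, adjusted p = 0.025).

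The ratio of the type I chains fell as well. Col1a1 had 124, 125 and 149 counts per 100 of Col1a2 in Lean d3 and 90.8, 96.9 and 135 in Lean d10, with overlap. In DIO calli it had 139.8, 145 and 147 on d3 and 71.3, 88.2 and 107 on d10, without overlap. Over both diets the ratio fell by 0.52 on the log2 scale (exact permutation p = 0.015, adjusted 0.018). It stood at 65.5, 69.97 and 84.8 in DIO d14 and 61.01, 66.8 and 83.4 in DIO d21. Per kilobase of transcript these are ratios of 1.12 to 1.34 in Lean d3 and 0.55 to 0.75 in DIO d21. Per kilobase of all annotated exons they are 2.35 to 2.82 and 1.16 to 1.58, so whether the ratio lay below 1 depended on the length, while its fall did not.

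**Figure D4:**
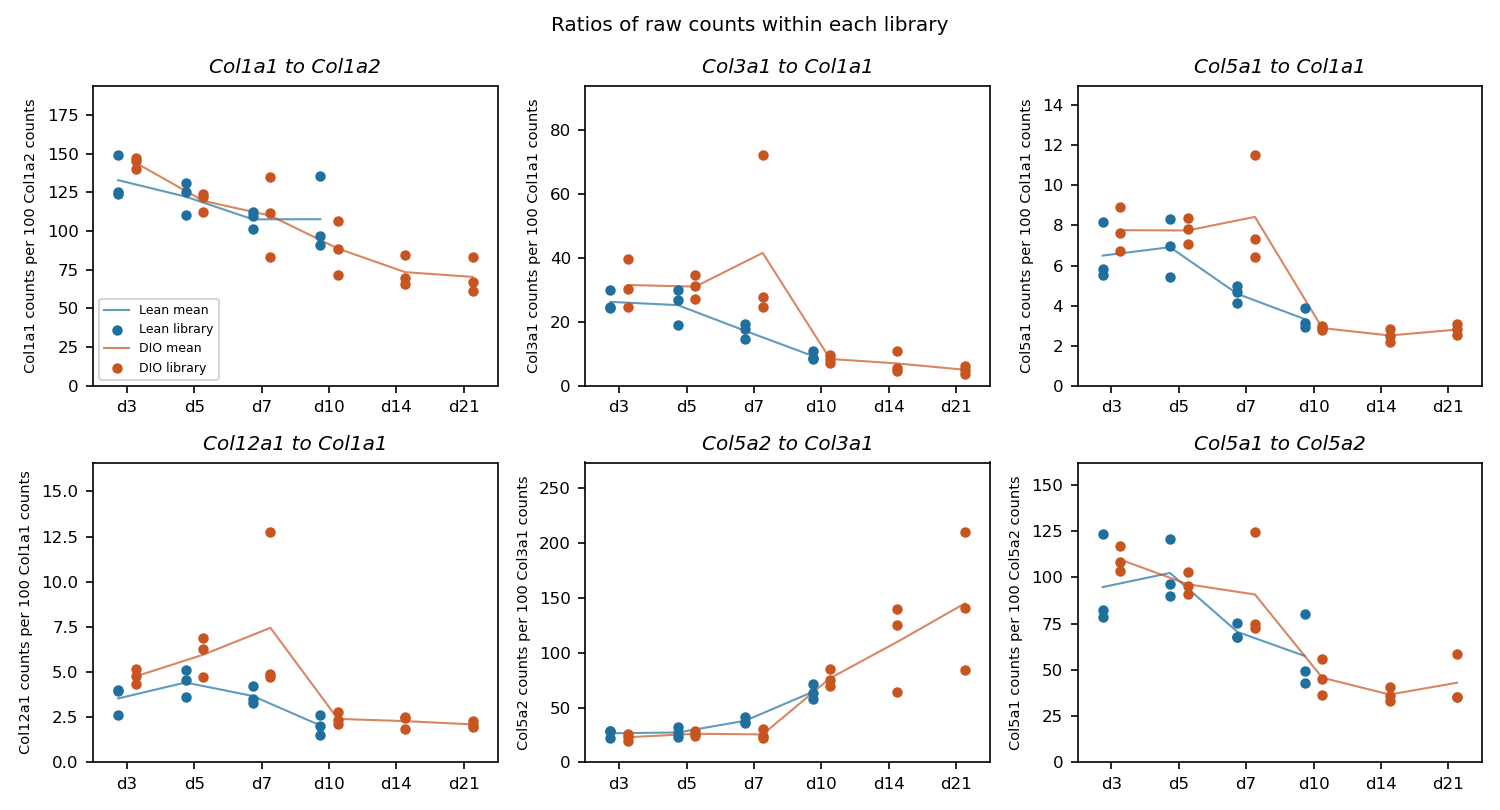
Ratio of counts within each library per 100 counts of the second gene (y, from 0) against day after fracture (x) for 6 pairs of collagens, with each point 1 callus and the lines joining group means. Col3a1 per 100 counts of Col1a1 lies between 24.2 and 29.9 in Lean d3 and between 3.79 and 6.27 in DIO d21.

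Ratios among the minor chains were added after their values had been seen and carry no test. Col5a2, whose gene lies next to that of Col3a1, had 21.9, 23.8 and 30.9 counts per 100 of Col3a1 in DIO d7, 70.1, 75.02 and 85.1 in DIO d10 and 84.1, 140.4 and 210.3 in DIO d21. In Lean calli the values were 22.1, 28.7 and 28.9 on d3 and 57.97, 62.95 and 71.7 on d10. The chains of type V collagen also parted: Col5a1 had 104, 108 and 117 counts per 100 of Col5a2 in DIO d3 and 36.3, 45.3 and 55.8 in DIO d10. Per kilobase these are ratios of 0.82 to 0.92 on d3 and 0.29 to 0.44 on d10, and per kilobase of all annotated exons 1.17 to 1.32 and 0.41 to 0.63.

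Because Col1a2 and Col3a1 moved in opposite directions between d3 and d10 in DIO calli, the 250 bases before their start in RefSeq (GRCm38.p6) are shown, with motif matches in capitals. The motifs, each searched on both strands, were the CCAAT box (CCAAT), the TATA box (TATAAA), the GC box (GGGCGG) and a core of RUNX sites (ACCACA).
Col1a2: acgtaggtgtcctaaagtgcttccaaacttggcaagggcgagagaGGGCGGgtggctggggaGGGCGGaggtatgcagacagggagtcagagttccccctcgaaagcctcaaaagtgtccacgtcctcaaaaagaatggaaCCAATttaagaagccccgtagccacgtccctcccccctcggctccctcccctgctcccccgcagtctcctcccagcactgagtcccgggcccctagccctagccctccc
Col3a1: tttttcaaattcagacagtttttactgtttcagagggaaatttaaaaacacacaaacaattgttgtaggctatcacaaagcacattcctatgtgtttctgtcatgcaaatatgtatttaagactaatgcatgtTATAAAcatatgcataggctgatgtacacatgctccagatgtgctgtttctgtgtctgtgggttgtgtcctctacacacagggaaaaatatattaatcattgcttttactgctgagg

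The Col1a2 window (chr6:4505368-4505617, plus strand) held 1 CCAAT, 109 bases before the start, and 2 matches to GGGCGG. This window lies inside the GENCODE span of Col1a2 given above, so the RefSeq start differs from that one and the distance depends on the start used. The Col3a1 window (chr1:45311288-45311537, plus strand) held 1 TATAAA, 117 bases before the start. Among the other members, the window of Col5a1 held 2 GGGCGG and that of Col24a1 held none of the 4 motifs. Of 32851 promoter windows of this length, 33.8% held CCAAT, 32.7% GGGCGG, 14.0% ACCACA and 12.4% TATAAA. Promoters of 4 of the 7 genes were matched, and Col1a1, Col5a2 and Col12a1 were not. The part of these motifs in the RNA differences was not tested.

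Across the 30 libraries the genes did not all vary together. The log2 CPM values of Col3a1, Col5a1 and Col12a1 went together, with Pearson correlations of 0.95 for Col3a1 and Col5a1, 0.91 for Col3a1 and Col12a1 and 0.90 for Col5a1 and Col12a1. Col1a2 had 0.83 with Col24a1 and 0.74 with Col1a1, and Col1a1 had 0.81 with Col5a2. Col3a1 had -0.25 with Col1a2 and -0.45 with Col24a1. These libraries share groups, scaling and, in part, depth, so the correlations describe the course over days and diets and carry no test. When each library was set against its own group mean, all pairs were positive, from 0.17 for Col3a1 and Col24a1 to 0.88 for Col1a2 and Col5a2.

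**Figure D5:**
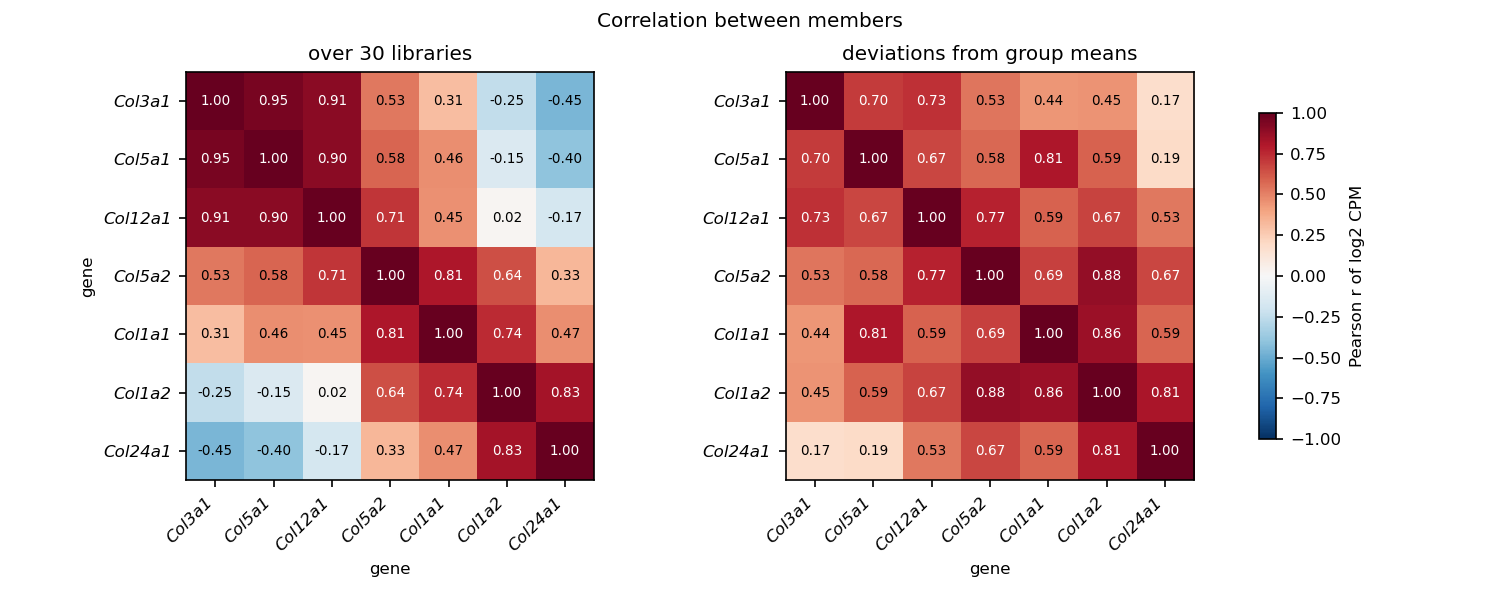
Pearson correlation of log2 CPM between each pair of the 7 genes over the 30 libraries, as a grid of genes by genes with the value in each cell and color from -1 to 1, for all libraries and for deviations from the group means. Col3a1 with Col5a1 is at 0.95 and Col3a1 with Col1a2 at -0.25 over all libraries, and the deviations are positive throughout.

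For each gene the 3 most alike of 17350 genes were listed by the same correlation over 30 libraries. Col3a1 was most like Angptl2 (0.98), Aebp1 (0.97) and Prrx2 (0.97), and Col5a1 most like Pofut2 (0.99), Aebp1 (0.98) and Emilin1 (0.97). Col12a1 was most like Spon1 (0.95), Nedd4 (0.94) and Igf2r (0.94). Col1a1 was most like Pcsk6 (0.92), Fgfr1 (0.91) and Bmp1 (0.90), Bmp1 being the enzyme that cuts the C-terminal end off procollagen. Col1a2 was most like Rhbdl2 (0.95), Sparc (0.94) and Tmem59 (0.93), Col5a2 most like Slc44a1 (0.93), B3gnt9 (0.93) and Ibsp (0.92), and Col24a1 most like Pard6g (0.94), Ptprd (0.93) and Eml4 (0.92).

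Collagen chains need enzymes and chaperones to fold, enzymes to cut and crosslink them, and proteins that cover the fibril, and 76 such partner genes were counted in 6 lists, of which 75 were tested. In Lean calli from d3 to d10, 34 of them rose and 7 fell (54.7% called, against 29.3% of all genes), with a median difference of 0.72 against 0.02 over all genes. Between d7 and d10 in DIO calli the count was 6 that rose and 32 that fell (50.7%, against 13%), with a median of -0.63 against -0.02. From d3 to d10 in DIO calli 17 rose and 13 fell (40%, against 21.8%), and from d14 to d21 none rose and 25 fell (33.3%, against 19.6%, with 9.03% of all genes lower). These lists were chosen with earlier results known, so their counts are descriptions. Every partner gene named in what follows passed the threshold in its comparison, and its value is a log2 difference.

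The partner genes that fell in the comparison in which Col3a1 fell came from several steps of collagen synthesis. Of 12 other collagens of fibrils and their surface 9 fell and none rose between d7 and d10, among them Col27a1 (-2.44) of cartilage and Col6a1 (-1.87) of the microfibrils around cells. Of 19 genes of folding and hydroxylation 10 fell, with P3h2 (-2.33), a prolyl hydroxylase, and Plod3 (-1.42), a lysyl hydroxylase. Of 12 genes of cleavage and crosslinking 6 fell and 2 rose, and the lysyl oxidases Loxl3 (-1.44) and Loxl2 (-1.34) were among those that fell. Fibronectin (Fn1, -1.84) and Tgfbi (-2.05), both matrix proteins that bind collagen, were among the 6 of 16 fibril surface genes that fell. Of 10 receptors 1 rose and 1 fell. The SE of the genes named here ran from 0.18 to 0.33 and the adjusted p from 3.80e-06 to 0.000934 in edgeR. Most chondrocyte markers also fell in this comparison, as given above, and their part was not tested.

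Genes of degradation went the other way in the same comparison, with 3 of 6 rising and none falling. The osteoclast protease Ctsk differed by 2.77, the gelatinase Mmp9 by 2.63 and the collagenase Mmp13 by 1.82. Ctsk and Mmp9 are also in the list of osteoclast markers, so these counts are not separate from the marker counts above. In Lean calli from d3 to d10 5 of 6 rose, with Ctsk at 3.67, Mmp9 at 3.05 and Mmp13 at 2.88. There the fibril surface list rose in 10 of 16 genes, with the bone matrix protein Sparc at 1.89, and the cleavage and crosslinking list in 6 of 12, with Pcolce, an enhancer of procollagen cleavage, at 1.27. Tgfbi fell (-1.57). The other collagens rose in 5 of 12 genes and fell in 1, folding genes rose in 6 and fell in 2 of 19, and the receptors rose in 2 and fell in 2 of 10.

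On d21 against d14 in DIO calli the falls were spread over all 6 lists: 2 of 12 other collagens, 9 of 19 folding genes, 5 of 12 cleavage and crosslinking genes, 5 of 16 fibril surface genes, 2 of 10 receptors and 2 of 6 degradation genes. Among them were the folding genes Fkbp10 (-1.16) and P3h4 (-1.15), Pcolce (-1.17), the proteoglycan decorin (Dcn, -0.79), the collagen receptor Ddr2 (-0.62) and the gelatinase Mmp2 (-0.90). In the same comparison 9 of 14 fibroblast and tenocyte markers fell, and their part was not tested. Dcn belongs to that marker list as well, so the 2 lists are not separate.

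Between the diets on d7, 13 partner genes were higher and 2 lower in DIO calli. Folding and hydroxylation held 8 of these, with P3h2 at 2.09 and the prolyl hydroxylase subunit P4ha2 at 1.46, and cleavage and crosslinking held 3, with Loxl3 at 1.32. The fibril surface list held the other two, among them Fn1 at 1.78. The genes that were lower were those of degradation, Ctsk at -1.17 and Mmp9 at -1.27, both also counted above as osteoclast markers. For the change of the diet difference from d7 to d10, 26 partner genes were lower and 2 higher, as Col3a1 was lower, with P3h2 at -3.85, Fn1 at -3.03, Loxl3 at -2.27 and Col6a1 at -2.26, and Ctsk higher at 1.43. The comparisons of d10 with d7, of the diets on d7 and of the change between these days share the DIO d7 calli, so they are not independent of each other.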

How the data were processed

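Poly(A) RNA of 30 calli was sequenced as stranded libraries. The authors demultiplexed reads with bcl2fastq, trimmed them with BBDuk, aligned them to GRCm38 with HISAT2 2.1.0 and counted reads per gene with HTSeq. They deposited the raw counts per gene, without normalization. The HTSeq version, strand option and annotation are not given in the sources used here. Tests were run on the counts with edgeR 4.0.16 in R 4.3.3 (TMM factors, filterByExpr, quasi-likelihood F-test) and other values were computed in Python 3.11.15. Lean days shared 1 fit of 12 libraries, DIO days 1 fit of 18, diets within a day 1 fit each, and diet by day 1 fit of 24. Intervals cover 95%, and log2 CPM used a prior count of 2. Scripts were tested on simulated data. As alternatives, DESeq2 1.42.0, RLE factors, upper-quartile factors, no filter but 1 count, a replicate block, all 30 libraries in 1 fit and leaving out each callus were tried.

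All 7 genes are named in every comparison. Each partner list gives up to 3 names per comparison, those of lowest adjusted p, and each member the 3 genes of highest correlation. The members and lists were chosen with earlier results of these data known. The labels number the calli as biological repeats of different mice. By the correlation of deviations from group means, same-numbered libraries went together most clearly for Lean d7 and d5 (0.20 to 0.28). With the numbers as a block none of the 7 genes passed for Lean d7 against d5. The mean for same numbers also lay above that for other pairs in Lean d10 and d3 (0.17 and -0.088) and Lean d5 and d3 (0.15 and -0.073). Over all DIO days it was -0.018.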

Additional observations from a re-analysis of the deposited data

Results flagged for a closer look

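The difference between DIO and Lean calli on d10 less that on d7 was -1.27 for Col3a1 on the log2 scale (edgeR adjusted p = 0.0285). This call was lost when any 1 of 6 calli was left out (edgeR adjusted p = 0.0515 to 0.0854). The joint test of such a change over d3 to d10 did not pass for Col3a1 (edgeR adjusted p = 0.113). Col3a1 was higher in each DIO callus than in each Lean callus on d7 and lower in each on d10. Neither of these differences passed on its own day (edgeR adjusted p = 0.205 and 0.686). No other gene of the 7 passed the test of d10 less d7 with edgeR.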

How the results depend on the processing

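The differences of single members given above were refitted under RLE or upper-quartile factors, DESeq2, no filter but 1 count, the replicate block or all 30 libraries in 1 fit. Each difference was counted once for each setting. Of these refits 279 kept the direction and the side of the threshold, 13 passed where the main fit had not, and none reversed. Of the refits with 1 callus left out, counted in the same way, 710 kept both, 38 lost and 14 gained the call, and 6 turned in sign. With 3 calli a group, a difference near the threshold depends on single calli, as the losses named with each result show, and the cause was not tested.

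With DESeq2 the number of the 7 genes called was 3 in place of 1 for any Lean day, 6 in place of 3 for DIO d21 against d14, 2 in place of 1 for the diets on d7, 3 in place of 1 for the change of the diet difference from d7 to d10, and 1 in place of 0 for that change over d3 to d10. Upper-quartile factors gave 6 for DIO d21 against d14. When each callus was left out, the number ran from 1 to 3 for Lean d10 against d3, from 0 to 3 for any Lean day, from 2 to 5 for DIO d10 against d7, from 0 to 6 for DIO d21 against d14, from 0 to 2 for the diets on d5, from 0 to 1 for the diets on d7, from 0 to 2 for the change from d7 to d10 and from 0 to 1 for that over d3 to d10.

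Signs turned for values near 0 when 1 callus was left out. Lean d10 against d3 ran from -0.22 to 0.31 for Col5a1 and from -0.014 to 0.41 for Col12a1, and DIO d10 against d7 ran from -0.20 to 0.069 for Col5a2. The ratio of Col24a1 to Col1a1 was -0.24 in Lean libraries alone and 0.095 to 0.48 with each library left out, where it passed without replicate 1 of Lean d10. Within 1 diet the ratios could not pass, since 3 against 3 allows no p below 0.1. In Lean libraries alone Col1a1 to Col1a2 differed by -0.32, Col3a1 to Col1a1 by -1.49, Col5a1 to Col1a1 by -0.95, Col5a2 to Col1a2 by -0.53 and Col12a1 to Col1a1 by -0.80, and in DIO libraries alone by -0.72, -1.89, -1.42, -0.86 and -0.99. The group means were recomputed with total counts and with RLE factors, and each was counted once for each scaling. Of these values 138 kept within 1 SD, and Col3a1 and Col12a1 in DIO d10 moved to 2644 and 758 CPM with total counts. Counts divided by the length of all annotated exons in place of the principal transcript, an alternative added after the values were seen, reversed the mean log2 ratio of Col1a1 to Col1a2 per kilobase to 1.02 in Lean d7, 1.00 in Lean d10, 1.03 in DIO d7, 0.73 in DIO d10, 0.47 in DIO d14 and 0.40 in DIO d21, and that of Col5a1 to Col5a2 to 0.068 in Lean d3, 0.20 in Lean d5, 0.31 in DIO d3 and 0.12 in DIO d5. A change of length shifts every library alike and leaves differences between groups as they are.

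With the replicate numbers as a block, 3 members were called over any Lean day (Col1a2, Col5a2 and Col24a1) and Col24a1 passed for Lean d10 against d3 (0.81, adjusted p = 0.0112). The block changed no other call of a member. Over all Lean days the mean correlation of same-numbered libraries was 0.13, against -0.063 for other pairs, and what they share beside a number is not given.

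Over all genes, DESeq2 called 583 in place of 74 for Lean d5 against d3, 1802 in place of 450 for d10 against d7, 4847 in place of 3132 for any Lean day, 575 in place of 285 for DIO d5 against d3, 552 in place of 129 for DIO d14 against d10, 1149 in place of 170 for the diets on d5, 944 in place of 366 on d7, 1496 in place of 865 for the change from d7 to d10 and 1151 in place of 282 over d3 to d10. With no filter but 1 count the same comparisons gave 169, 607, 3039, 478, 329, 565, 724, 898 and 503, and with the replicate block 199, 1479, 3865, 234, 45, 0, 320, 838 and 201. All 30 libraries in 1 fit gave 202 for Lean d5 against d3, 1529 for Lean d10 against d7, 2 for DIO d14 against d10, and 63 and 675 for the diets on d5 and d7. For the diets on d3, where edgeR called 0, no filter gave 515 and the block 325, and for DIO d7 against d5, where it called 3, no filter gave 271.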
